A study of Homo sapiens with 6 samples.

Results

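Transcripts of Wnt ligands, Wnt receptors and the proteins that carry the Wnt signal were compared between 2 stable HEK293 lines. The members were fixed as a list of 34 genes, 13 ligands, 15 receptors and 6 transducers, and every probe set that the platform annotation assigned to exactly 1 of these genes was taken. This gave 60 of the 41751 probe sets in the deposited table and 31 of its 18338 genes. Of the ligands 11 genes were measured by 21 probe sets, of the receptors 14 genes by 25 probe sets and of the transducers 6 genes by 14 probe sets. WNT3 and FZD8 were left out because each of their 3 probe sets was assigned to 2 genes, and WNT3A because 0 probe sets of the table were assigned to it.

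HEK293 cells derive from human embryonic kidney and are a long-established culture line. In a Tet-On line, doxycycline can switch on a gene placed under its control. The control group was the Tet-On HEK293 line with the control vector (3 arrays), and the other group the Tet-On HEK293 line with the myocilin vector (3 arrays). Both lines were grown with hygromycin B and G418, and the protocol, worded alike for both, gives doxycycline at 0.2 or 1 µg/ml for 48 h. The dose behind each array is not given, and the drug is named only in the descriptions of the myocilin samples, so exposure and vector cannot be told apart. Each line is represented once, whether a line is a clone is not given, and nothing says that the arrays came from separate cultures, so p-values speak only to the spread among these 6 arrays, which may be technical.

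Wnt proteins are secreted, lipid-modified growth factors that bind Frizzled receptors on the cell surface. With the co-receptors LRP5 and LRP6, this binding recruits Dishevelled and stops a complex of AXIN1, APC and kinases from marking beta-catenin for destruction, so that beta-catenin enters the nucleus and acts with TCF and LEF factors. Other Wnts, WNT5A among them, act mainly through ROR and RYK receptors on cell shape and movement, without beta-catenin.

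Values are the authors' centred values, read as log2, so each gene is seen relative to its own reference level. They show differences between arrays and not how abundant a transcript was, and a silent gene cannot be told from a weakly expressed one. MYOC, the induced gene, read -8.32 to -6.71 in the control line and 0.20 to 0.24 in the myocilin line, so the labels and the direction of the values fit each other. Arrays correlated across probe sets at 0.409 to 0.464 within the control line, 0.513 to 0.608 within the myocilin line and -0.244 to -0.00516 between lines. Centring had already taken the reference level out of the values behind these correlations. The correlations therefore cannot show how alike the lines, or the arrays of a line, were in transcript levels. Of 9 neural markers 3 rose and 1 fell, beside 15.6% of all genes called. NEFM, NEFH and INA, which are neurofilament genes, rose by 1.42, 0.67 and 0.35, and SOX2 fell by 0.24. The neurofilament gene NEFL differed by -0.05, STMN2 by -0.01, ELAVL4 by 0.03, NES by 0.12 and TUBB3 by 0.22, none past the threshold. The median difference of the 9 markers was 0.12. Their mean ranged from -0.11 to -0.06 on control and from 0.17 to 0.21 on myocilin arrays, and NEFM, with its difference of 1.42, is part of that mean. Of 6 renal progenitor markers 1 rose, and of 6 fibroblast markers 1 rose. None of the 4 measured leukocyte and 4 endothelial markers passed the limma threshold, against 1 and 0 at an unadjusted p under 0.05. Whether any marker was absent cannot be read from centred values, and the part of these marker differences in the results was not tested.

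In a limma fit over all genes, p-values adjusted by Benjamini and Hochberg and a threshold of 0.05, WNT5A fell, AXIN1 rose and CTNNB1, the beta-catenin gene, fell. The other 28 members did not pass, and their differences ran from -0.30 to 0.27. These 3 of 31 genes (9.68%) stand beside 15.6% of all genes called in the same fit, and 1 higher and 2 lower beside 8.28% and 7.35%. The median difference, myocilin minus control, was 0.01 among the members and 0.02 among all genes, and the median absolute difference 0.12 and 0.10. The values of the control and the myocilin arrays did not overlap for 13 of the 31 members (41.9%), beside 34.9% of all genes.

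**Figure D1:**
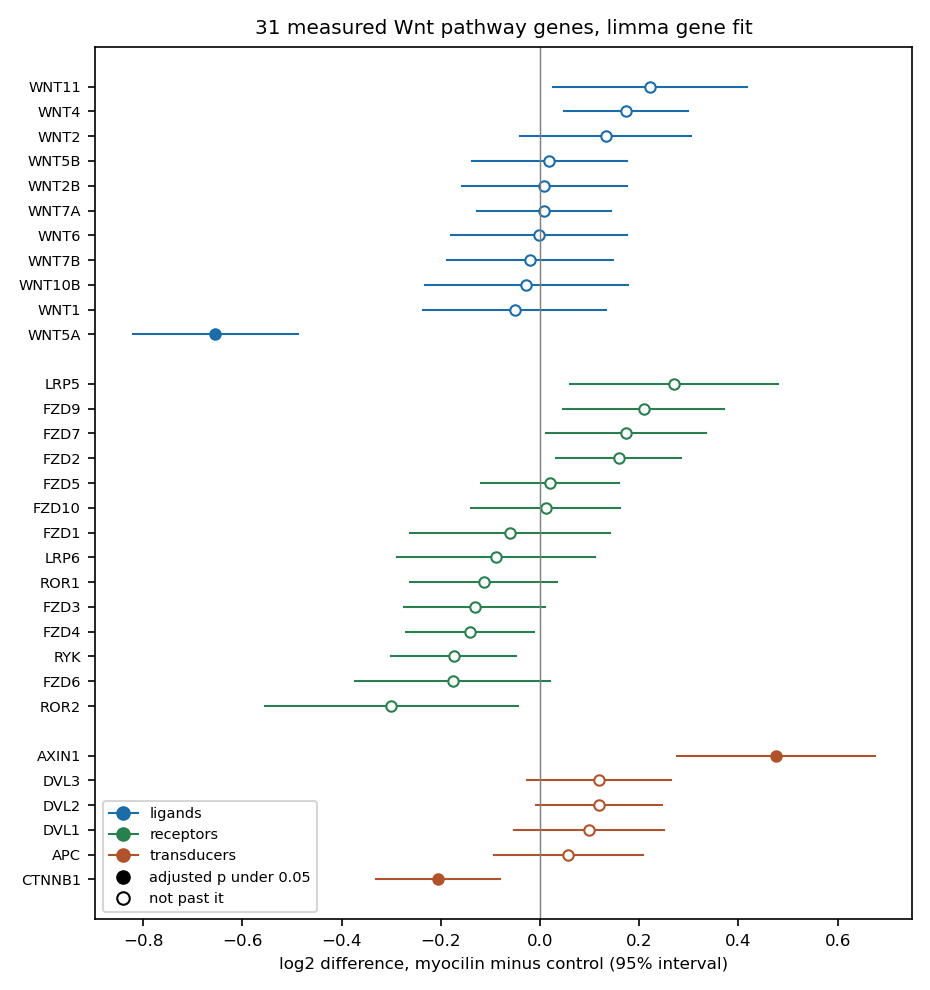
Log2 difference (myocilin minus control, horizontal axis) of the 31 measured genes by class, with 95% intervals from limma; filled points have an adjusted p under 0.05. WNT5A at -0.65, CTNNB1 at -0.21 and AXIN1 at 0.48 are the filled points, and the 14 receptors lie between -0.30 and 0.27.

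The promoters of the 3 genes that passed are shown because they mark listed starts of these genes and how unlike those regions are in sequence. Which start these cells used was not measured. Each is the 250 bases before a RefSeq start on GRCh38.p14, 5′ to 3′ on the gene's strand, with matches to the GC box (GGGCGG, either strand) in capitals. WNT5A has 2 promoters in the set used, at chr3:55487307-55487556 and chr3:55481399-55481648 (both minus strand). The annotated gene reaches 55505263, which on this strand lies before both, and no promoter there was in the set. CTNNB1 lies at chr3:41199255-41199504 (plus strand) and AXIN1 at chr16:352724-352973 (minus strand).
WNT5A, first start: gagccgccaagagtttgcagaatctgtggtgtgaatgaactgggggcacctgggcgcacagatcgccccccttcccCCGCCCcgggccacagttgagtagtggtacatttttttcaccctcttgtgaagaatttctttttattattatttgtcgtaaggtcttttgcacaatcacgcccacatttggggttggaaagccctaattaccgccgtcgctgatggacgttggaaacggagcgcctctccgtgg
WNT5A, second start: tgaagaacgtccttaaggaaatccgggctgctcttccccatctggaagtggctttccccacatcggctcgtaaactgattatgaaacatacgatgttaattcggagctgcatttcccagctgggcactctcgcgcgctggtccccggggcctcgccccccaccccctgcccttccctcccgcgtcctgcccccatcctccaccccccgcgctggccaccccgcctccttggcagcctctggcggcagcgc
CTNNB1: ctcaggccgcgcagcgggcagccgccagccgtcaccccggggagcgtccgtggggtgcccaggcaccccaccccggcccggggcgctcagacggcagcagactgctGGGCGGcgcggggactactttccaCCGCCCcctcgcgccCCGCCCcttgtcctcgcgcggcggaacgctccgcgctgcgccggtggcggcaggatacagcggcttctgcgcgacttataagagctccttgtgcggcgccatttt
AXIN1: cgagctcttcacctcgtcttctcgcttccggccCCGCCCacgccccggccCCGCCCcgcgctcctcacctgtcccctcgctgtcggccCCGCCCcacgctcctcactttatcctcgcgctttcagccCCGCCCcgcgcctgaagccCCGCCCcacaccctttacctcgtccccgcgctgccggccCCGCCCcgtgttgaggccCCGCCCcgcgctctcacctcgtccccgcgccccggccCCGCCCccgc
The AXIN1 promoter held 8 GC boxes in 77.6% G and C bases and the CTNNB1 promoter 3 in 74.4%. The WNT5A promoters held 1 and 0, in 52.8% and 64.4%. RefSeq promoters were matched for 25 of the 34 members, 29 promoters in all, of which 24 held a GC box, against 42.6% of all 35116 promoters of this length. The TCF/LEF letters CTTTGAT or CTTTGAA, on either strand, stood in 0 of the 29 and in 5.94% of all promoters, and the AP-1 letters TGANTCA in 0 of the 29 and in 6.57%. A match is a run of letters and not a bound site, and 0 matches say only that these letters are not in this window.

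Among the ligands, WNT5A was the gene that passed. It encodes the main ligand of the branch that does not use beta-catenin, and lies on chromosome 3 (GRCh38.p14, 55465715 to 55505263). WNT5A read 0.46, 0.46 and 0.26 in the control line and -0.26, -0.18 and -0.34 in the myocilin line. Every myocilin array was below every control array. The means were 0.39 ± 0.12 and -0.26 ± 0.08 (SD, n = 3 each), a fall by 0.65 ± 0.07 on the log2 scale (SE), or 1.57-fold lower (limma adjusted p = 0.000729). Of all genes measured, 0.529% had a lower difference.

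Both WNT5A probe sets moved alike. The probe set whose name ends in _s_at read 0.29, 0.35 and 0.24 on control and -0.40, -0.16 and -0.41 on myocilin arrays, a difference of -0.62 (adjusted p = 0.00238 over all probe sets). The other read 0.64, 0.57 and 0.27 on control and -0.13, -0.20 and -0.26 on myocilin arrays, a difference of -0.69 (adjusted p = 0.00275). The control arrays spread more in this one, with control array 3 nearest to the myocilin arrays. The fall did not rest on that array: without control array 3 the gene's difference was -0.72. Of the 50 measured genes nearest to WNT5A on the chromosome, 1 rose and 4 fell, their median difference was 0.002, and 0 of them fell as far.

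WNT5B, the closest relative of WNT5A, did not pass. It read -0.02, -0.05 and -0.01 on control and -0.15, 0.04 and 0.08 on myocilin arrays, and the groups overlapped (difference 0.02 ± 0.07, SE). Its 2 probe sets had opposite signs, at -0.07 and 0.10. Whether WNT5A and WNT5B differed from each other in their change was not tested.

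WNT4, a ligand of kidney tubule and reproductive tract development, gave a probe set past the threshold but no gene call. Its gene difference depended on the probe sets, at 0.005 from the first probe set by ID and 0.09 without probe sets ending in _s_at. As a gene it read -0.09, -0.11 and -0.09 on control and 0.08, 0.02 and 0.13 on myocilin arrays. The groups did not overlap, and the difference was 0.17 ± 0.06 (SE, adjusted p = 0.0663). Its 3 probe sets, all above 0, spread from 0.005 to 0.35. The highest, the only one of the 3 with a name ending in _s_at, read -0.26, -0.02 and -0.12 on control and 0.24, 0.07 and 0.34 on myocilin arrays, a rise by 0.35 ± 0.09 (SE, limma adjusted p = 0.0428 over all probe sets). This call ended without control array 1 (0.29, adjusted p = 0.121), control array 2 (0.41, 0.0513), control array 3 (0.35, 0.0995), myocilin array 1 (0.34, 0.127) or myocilin array 3 (0.28, 0.131). The 50 genes nearest to WNT4 on chromosome 1 had a median difference of 0.01, with 0 higher and 3 lower.

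The other ligands did not pass. WNT11, a ligand of convergent extension movements, read 0.05, -0.16 and -0.18 on control and 0.19, -0.03 and 0.22 on myocilin arrays, with overlap (difference 0.22, adjusted p = 0.121). WNT2, a ligand of lung and placental development, differed by 0.13 (adjusted p = 0.286), or 0.21 without myocilin array 1 and 0.06 without myocilin array 3. WNT1, WNT2B, WNT6, WNT7A, WNT7B and WNT10B differed by -0.05 to 0.01. Of these, WNT1 is best known as a ligand of the midbrain, WNT7A of the limb and WNT10B of breast, fat and bone. The 95% intervals of the 10 ligands that did not pass ran from -0.24 to 0.42. In all, 1 of 11 ligand genes passed (9.09%, beside 15.6% of all genes), the groups did not overlap for 2 of them (18.2%, beside 34.9%), and the median ligand difference was 0.01.

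**Figure D2:**
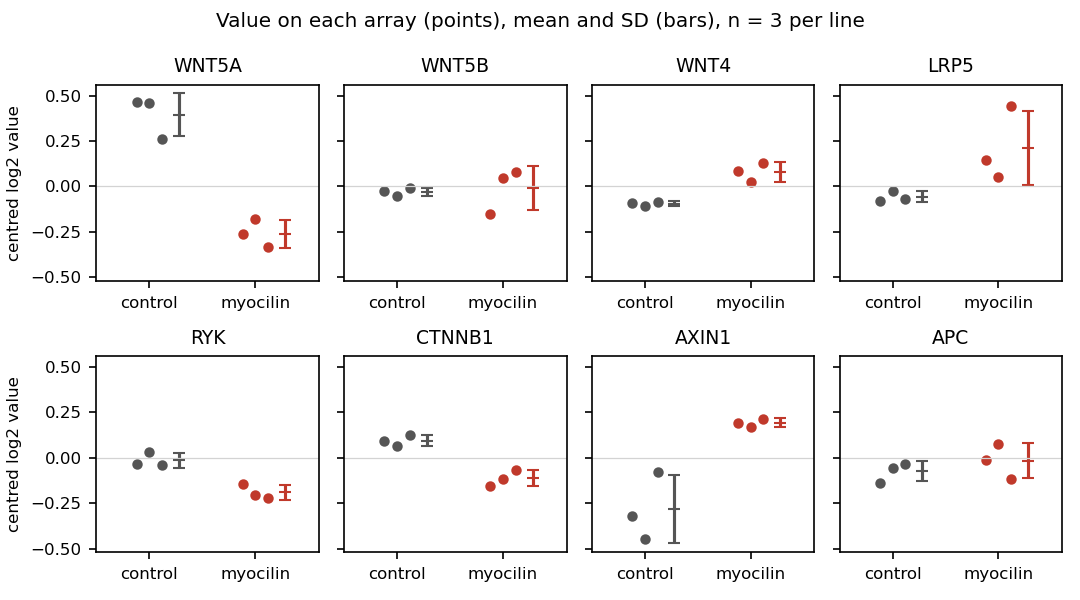
Centred log2 value (vertical axis) of 8 genes on each control and myocilin array, with the mean and SD of the 3 arrays beside the points. WNT5A and CTNNB1 are lower on every myocilin array and AXIN1 is higher on every myocilin array, with control array 3 at -0.08 nearest to them, while WNT5B and APC overlap.

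No receptor gene passed the threshold. Of 14 receptors 0 were called by limma, beside 15.6% of all genes. At an unadjusted limma p under 0.05 there were 7 of the 14, beside 5503 of all 18338 genes. The groups did not overlap for 7 of the 14 receptors (50%, beside 34.9% of all genes). Receptor differences lay on both sides of 0, 6 above and 8 below, with a median difference of -0.07. The mean over the 14 receptors was -0.01, 0.06 and -0.04 on control and -0.01, -0.0006 and -0.05 on myocilin arrays, which overlap.

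The Frizzled genes encode the seven-pass receptors that bind Wnts. FZD9 read 0.00, -0.06 and -0.11 on control and 0.09, 0.29 and 0.07 on myocilin arrays, without overlap (difference 0.21, adjusted p = 0.0826). FZD2 read 0.00, -0.06 and -0.03 on control and 0.09, 0.12 and 0.18 on myocilin arrays, also without overlap (difference 0.16, adjusted p = 0.0877, and 0.09 with neighbours subtracted). These were the 2 Frizzled genes with the lowest p. FZD7, a receptor of stem and progenitor cells, differed by 0.17 with overlap between the groups (adjusted p = 0.140), and passed when the median of its 50 chromosomal neighbours was subtracted (0.23, adjusted p = 0.0496). In the other direction, FZD4, the receptor of retinal vessel growth, differed by -0.14, FZD6, a planar polarity receptor, by -0.18, and FZD3, a receptor of axon guidance, by -0.13, with adjusted p of 0.131, 0.213 and 0.201. FZD6 read -0.10 without myocilin array 3, and FZD3 -0.08 without control array 2 and -0.23 with neighbours subtracted. FZD1, FZD5 and FZD10 differed by -0.06, 0.02 and 0.01. The 95% intervals of the 9 Frizzled genes lay between -0.37 and 0.37.

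LRP5, a co-receptor of the beta-catenin branch, had the largest positive receptor difference. It read -0.08, -0.02 and -0.07 on control and 0.14, 0.05 and 0.44 on myocilin arrays. The groups did not overlap, but the myocilin arrays spread widely, at 0.21 ± 0.20 (SD, n = 3) against -0.06 ± 0.03. The difference was 0.27 ± 0.09 (SE, adjusted p = 0.0823), with 0.22 and 0.32 in its 2 probe sets, and it passed without myocilin array 2 (0.35, adjusted p = 0.0492). Without myocilin array 3 it was 0.16 (adjusted p = 0.161). LRP6, its close relative, read -0.13, 0.19 and -0.12 on control and -0.16, -0.08 and -0.08 on myocilin arrays, a difference of -0.09 with overlap. Whether the 2 co-receptors differed from each other was not tested.

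The genes of the ROR and RYK receptors, ROR1, ROR2 and RYK, were all below 0 and none passed. These 3 are a part of the 14 receptors, of which 6 were above 0 and 8 below. RYK, a Wnt receptor with an inactive kinase domain, read -0.04, 0.03 and -0.04 on control and -0.14, -0.20 and -0.22 on myocilin arrays, without overlap (difference -0.17 ± 0.06, SE, adjusted p = 0.0666). Its 3 probe sets differed by -0.22 to -0.14. ROR2, a receptor tyrosine kinase that binds WNT5A, had the lowest receptor difference, -0.30 ± 0.11 (SE, adjusted p = 0.109). It read 0.29, 0.03 and 0.02 on control and 0.00, -0.13 and -0.43 on myocilin arrays, with control array 1 the highest and myocilin array 3 the lowest, and the difference was -0.18 without myocilin array 3. ROR1, its relative, differed by -0.11 (adjusted p = 0.286), and its 3 probe sets spread from -0.23 to 0.01. The ROR1 difference was -0.06 without myocilin array 3, -0.04 by the median of its probe sets and -0.07 with neighbours subtracted.

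**Figure D3:**
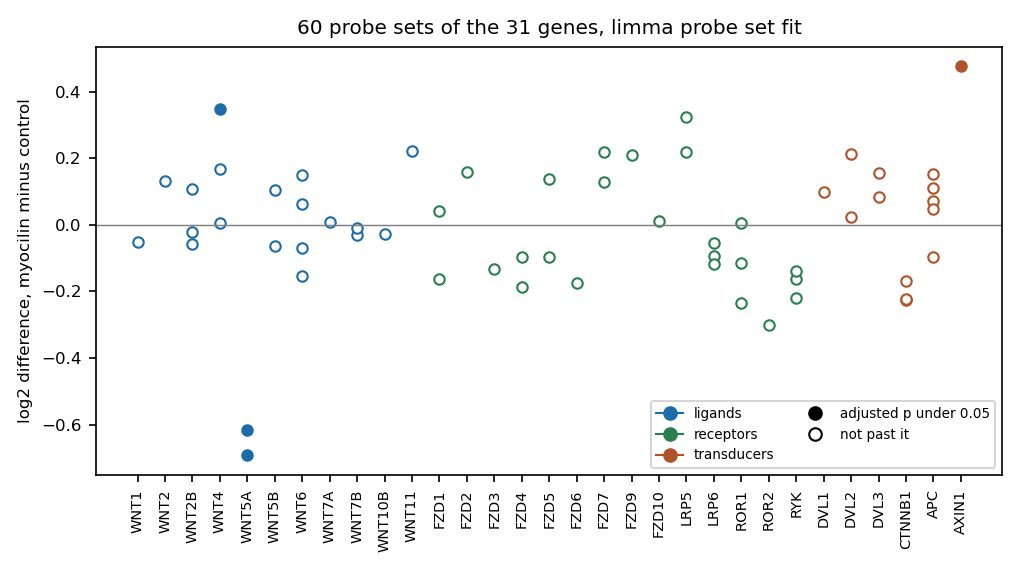
Log2 difference (myocilin minus control, vertical axis) of each of the 60 probe sets, by gene; filled points have an adjusted p under 0.05 over all probe sets. The 4 filled points are both WNT5A probe sets at -0.62 and -0.69, 1 of 3 WNT4 probe sets at 0.35 and the AXIN1 probe set at 0.48.

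Among the transducers, 2 of 6 genes passed (33.3%, beside 15.6% of all genes), in opposite directions, and 1 of these calls, that of CTNNB1, held in 6 of 15 alternatives. AXIN1, the scaffold on which the beta-catenin destruction complex forms, lies on chromosome 16 (GRCh38.p14, 287440 to 352723) and had the highest difference of all 31 members. It read -0.32, -0.45 and -0.08 on control and 0.19, 0.17 and 0.22 on myocilin arrays. The groups did not overlap, and the control arrays spread more, at -0.28 ± 0.19 (SD, n = 3) against 0.19 ± 0.02. The rise was 0.48 ± 0.09 on the log2 scale (SE), or 1.39-fold (limma adjusted p = 0.00758). AXIN1 rested on 1 probe set.

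Neighbours of AXIN1 also rose. Of its 50 nearest measured genes 17 rose and 1 fell, with a median difference of 0.13, and 3 of them were at or above the AXIN1 difference. Over chromosome 16, 214 of 777 genes rose and 7 fell, with a median of 0.14. With the median of its neighbours subtracted on each array, the AXIN1 difference was 0.35 ± 0.08 (SE, adjusted p = 0.0250). The part of a change in the whole region in the AXIN1 rise was not tested beyond this subtraction.

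CTNNB1 encodes beta-catenin, the protein that the destruction complex keeps low. It lies on chromosome 3 (GRCh38.p14, 41199505 to 41240443) and read 0.09, 0.06 and 0.12 on control and -0.15, -0.12 and -0.07 on myocilin arrays. The groups did not overlap, with means of 0.09 ± 0.03 and -0.11 ± 0.04 (SD, n = 3 each). It fell by 0.21 ± 0.06 on the log2 scale (SE), or 1.15-fold lower (limma adjusted p = 0.0349). Its 3 probe sets were all below 0, at -0.23, -0.22 and -0.17, and none passed over all probe sets (adjusted p = 0.151 to 0.349).

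The CTNNB1 call ended without control array 1 (-0.21, adjusted p = 0.0781), control array 2 (-0.22, 0.0612), control array 3 (-0.19, 0.0995), myocilin array 1 (-0.18, 0.126) or myocilin array 2 (-0.20, 0.0924). The 50 genes nearest to CTNNB1 had a median difference of 0.02, with 1 higher and 3 lower, and with their median subtracted CTNNB1 read -0.20 (adjusted p = 0.0515).

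The Dishevelled genes, whose products carry the signal from Frizzled to the destruction complex, did not pass. DVL1, DVL2 and DVL3 differed by 0.10, 0.12 and 0.12, with adjusted p of 0.370, 0.198 and 0.252. DVL3 was 0.06 without control array 3, and DVL2 0.03 with neighbours subtracted and 0.02 from its first probe set by ID. The groups did not overlap for DVL2 and DVL3, and DVL2 was at 0.05, 0.03 and 0.03 on control and 0.12, 0.12 and 0.22 on myocilin arrays. APC, the tumour suppressor of the destruction complex, differed by 0.06 (adjusted p = 0.622), and its 5 probe sets spread from -0.10 to 0.15. The mean over the 6 transducers was -0.04, -0.07 and -0.005 on control and 0.07, 0.08 and 0.06 on myocilin arrays, which do not overlap. AXIN1, with a difference of 0.48, is part of that mean. The 4 transducers that did not pass differed by 0.06 to 0.12, and CTNNB1 by -0.21.

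**Figure D4:**
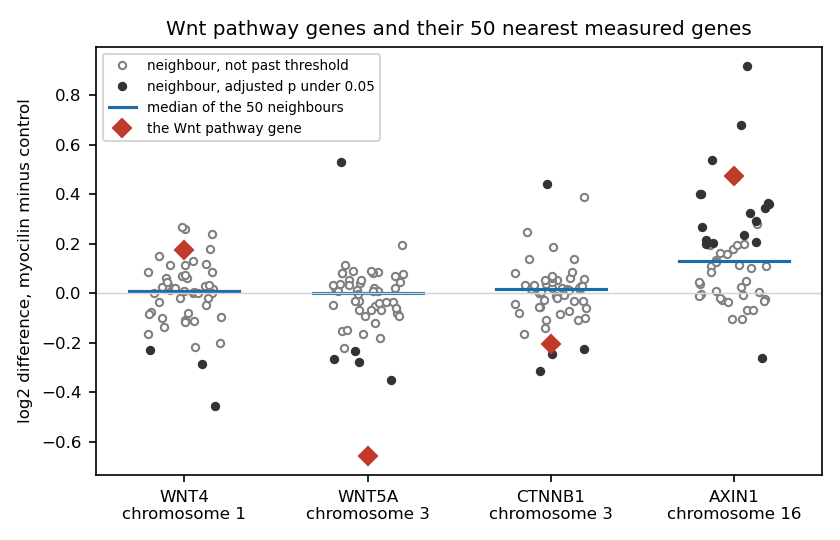
Log2 difference (myocilin minus control, vertical axis) of WNT4, WNT5A, CTNNB1 and AXIN1 (diamonds) and of the 50 measured genes nearest to each (circles, filled where the adjusted p is under 0.05), with the neighbours' median as a line. The neighbours of AXIN1 have a median of 0.13 with 17 higher, while those of the other 3 genes have medians of 0.002 to 0.02.

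Probe sets of a gene did not always share a sign. At the level of probe sets, 4 of the 60 passed (6.67%), beside 11% of all probe sets, 2 higher and 2 lower beside 5.46% and 5.56%, and the groups did not overlap for 17 of the 60, beside 30.4% of all probe sets. Of the 18 members with several probe sets, 11 had all differences on the same side of 0 and 7 did not. The 7 were WNT2B, WNT5B, WNT6, FZD1, FZD5, ROR1 and APC, none of them called. The widest gap between probe sets of a gene was 0.34, in WNT4.

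The rest of the pathway was read from 8 lists that hold 89 further genes, 87 of them measured. Of these 13 rose and 8 fell (24.1%, beside 15.6% of all genes), with a median difference of -0.01. The lists were chosen with earlier results of these data known. This share and those of the single lists below are therefore descriptions and cannot show that the pathway changed more than other genes. Of the 6 other Wnt ligands 0 passed by limma, with 1 at an unadjusted p under 0.05. WLS, the carrier that brings Wnts to the cell surface, was the only measured gene of 2 in Wnt secretion and differed by -0.22 (adjusted p = 0.0602). Of 17 antagonists, secreted or membrane-bound, 1 rose and 3 fell. SFRP1, a Frizzled-like decoy, rose by 0.79 (0.39 from its first probe set by ID). SOSTDC1, an antagonist of Wnts and bone morphogenetic proteins, fell by 1.24. WIF1, which binds Wnts directly, fell by 0.62 and the membrane-bound APCDD1 by 0.58. APCDD1 lies on chromosome 18 and read -0.33 with the median of its chromosomal neighbours subtracted and -0.94 from its first probe set by ID. The median of this list was -0.04.

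Of 9 R-spondins, their LGR receptors and the ligases that remove Frizzled from the surface, 1 rose and 2 fell. This stands beside 15.6% of all genes called, and the median of the list was 0.07. LGR5, a stem cell receptor for R-spondins, read 0.25, 0.31 and 0.17 on control and -0.52, -0.45 and -0.59 on myocilin arrays, a fall by 0.76 without overlap. The ligand RSPO4 fell by 0.50 and the ligase RNF43 rose by 0.33 (limma adjusted p = 0.0229). The RNF43 call ended without control array 1 (0.28), control array 2 (0.32) or myocilin array 3 (0.26). It also ended with chromosomal neighbours subtracted, where LGR5 and RSPO4 still passed.

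The rest of the destruction complex and its regulators had 5 rises and 1 fall among 14 genes, beside 15.6% of all genes called. The median of this list was 0.04. The kinase genes CSNK1E and CSNK1D rose by 0.29 and 0.22, the GSK3-binding FRAT2 and FRAT1 by 0.25 and 0.21, and BTRC, which encodes the ubiquitin ligase subunit that recognises beta-catenin, by 0.19, while the kinase gene CSNK1A1 fell by 0.19. FRAT2, FRAT1 and BTRC all lie on chromosome 10. The part of that chromosome in their rises was not tested beyond the neighbour subtraction below. CSNK1E passed whichever array was left out (0.26 to 0.33). The other 5 calls were mostly lost: 1 or 2 of the 14 genes passed when any 1 of the 6 arrays was left out, and 0 passed with chromosomal neighbours subtracted, where CSNK1E read 0.18, FRAT1 0.13 and BTRC 0.07. From the first probe set by ID CSNK1D read 0.47 and CSNK1E 0.16. AXIN2, a feedback relative of AXIN1, differed by 0.01 (adjusted p = 0.946).

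Of 12 nuclear partners of beta-catenin 1 was called, beside 15.6% of all genes, with a median of -0.06. This was TCF7L1, a mainly repressing TCF factor, which rose by 0.41. It did not pass without control array 2 (0.33, adjusted p = 0.0631), myocilin array 1 (0.42, 0.0614) or myocilin array 3 (0.33, 0.0636). Of 18 genes of planar polarity and the calcium branch 2 were called, beside the same 15.6%, with a median of -0.01. CELSR3, an atypical cadherin, rose by 0.37 and PRICKLE1, a cytoplasmic polarity protein, fell by 0.25. CELSR3 did not pass without control array 2 (0.35), myocilin array 1 (0.34) or myocilin array 3 (0.31), nor PRICKLE1 without control array 3 (-0.24), myocilin array 2 (-0.26) or myocilin array 3 (-0.22).

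Targets and feedback genes of beta-catenin went both ways. Of 17 measured 5 rose and 2 fell, beside 15.6% of all genes called, with a median of 0.01. NKD2, a Dishevelled antagonist, rose by 0.92, MYC by 0.67, the adhesion receptor CD44 by 0.45 and RNF43 as above. The cyclin gene CCND1 rose by 0.25, while LGR5 and TNFRSF19 fell by 0.76 and 0.24. CCND1 was 0.16 after dropping _x_at and _s_at probe sets, and TNFRSF19 -0.45 from its first probe set by ID. Without control array 1, control array 2 or myocilin array 3, 4 of them passed in each case, NKD2, MYC, CD44 and LGR5. AXIN2 is given above, and LEF1, a TCF family factor, and DKK1, a secreted inhibitor of LRP5 and LRP6, differed by -0.05 and 0.10, neither past the threshold.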

How the data were processed

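Total RNA was measured on 6 Affymetrix HG-U133 Plus 2.0 arrays, 3 per line, grouped by source name; title numbers (1 to 3 and 7 to 9) run with the lines, other numbers are not analysed here. The authors deposited 1 table of centred values, read as log2. Its values are positive and negative with a median of 0 on every array, which does not give the base. The fold changes rest on base 2. The background correction and normalisation behind the table are not stated in these sources. Of 41751 probe sets, 37460 had 1 annotated gene, 1728 several and 2563 none listed; 37416 matched RefSeq (GRCh38.p14) by Entrez identifier. Probe sets of a gene were averaged.

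Groups were compared with limma 3.58.1 (lmFit, eBayes, two-sided) in R 4.3.3, over all genes and over all probe sets, with Benjamini-Hochberg adjustment at 0.05. Neighbours were the 50 nearest measured genes by start. The fit was tested on simulated data. Members and lists were chosen with earlier results of these data known. Every member is described; of each other list, up to 4 members by p among those past the threshold were to be named, and further ones (CSNK1A1, BTRC, CCND1, TNFRSF19, AXIN2, LEF1, DKK1, WLS, WNT9A) were chosen after their values were seen. No filter on low values was possible on centred values. The small number of arrays limits precision, and 15 alternatives were tried.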

Additional observations from a re-analysis of the deposited data

How the results depend on the processing

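The fall of WNT5A and the rise of AXIN1 held past the threshold in 14 of 15 alternatives each, with differences from -0.72 to -0.62 and from 0.35 to 0.58; the exception was the Welch test per gene, which pools no variance between genes (adjusted p = 0.0832 and 0.222). CTNNB1 held in 6 of 15 (-0.23 to -0.17) and did not pass after dropping _x_at and _s_at probe sets (0.0593), when the first ID stood for each gene (0.142) or under Welch (0.0947, all adjusted p). The Welch test called 44 of all genes, 0 members in every class, 0 member probe sets and 0 genes in each of the R-spondin, antagonist, destruction complex, nuclear, polarity and target lists. Transducers called numbered 1, AXIN1, without _x_at or _s_at probe sets, with 1 probe set per gene and with 50 neighbours subtracted, and 1 to 2 when an array was left out. Receptors called numbered 1 with neighbours subtracted (FZD7) and 0 to 1 when an array was left out (LRP5 without myocilin array 2). Member probe sets called numbered 2 without _x_at or _s_at probe sets. With an array left out, counts were 0 to 1 for other ligands (WNT9A without control array 2), 0 to 1 for Wnt secretion (WLS without myocilin array 2), 1 to 2 for the destruction complex list, 0 to 1 for nuclear partners, 0 to 2 for polarity genes and 4 to 7 for targets. With 1 probe set per gene, 1 destruction complex gene and 1 polarity gene passed. With neighbours subtracted, 0 destruction complex genes, 2 nuclear partners (TCF7L1 and TCF7L2) and 1 polarity gene passed. Without _x_at or _s_at probe sets 2 of 10 nuclear partners passed, TCF7L2 and TLE1, and TCF7L1 was not among them. ROR1 read 0.0060 and BTRC -0.15 from 1 probe set picked by ID, against -0.11 and 0.19. The cause of these changes was not tested. Apart from the Welch test, counts over all genes ranged from 1613 without myocilin array 1 to 3162 with array weights. Median centring could not move any result, because every array already had a median of 0. AXIN1 has 1 probe set, and its difference stayed at 0.48 in the settings that choose or combine probe sets. These were dropping _x_at and _s_at probe sets, taking the median and taking the first ID. All of these settings are counted in the 15, so the tallies hold alternatives that could not change these differences. No paired analysis was possible because the lines share no replicate numbers in the labels.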
